A study of Mus musculus with 6 samples.

Results

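Transcripts of kidney tubule cells and of injured tubule cells were followed through single wells that had been sorted for other cell types. The members are 7 named genes, namely Kap, Tmem27, Cubn, Umod, Havcr1, Lcn2 and Krt20, out of 23998 gene symbols in the count tables, and all 7 had reads. They were chosen by name as tubule and tubular injury transcripts, with earlier results of these data known, and the wells were grouped by the gate and condition in the deposited plate layouts. Mouse kidneys were digested with enzymes, and sorted cells were profiled well by well with Smart-seq2, which covers transcripts over their whole length. According to the labels every one of the 6 plates mixes 3 mice, 1 healthy, 1 with unilateral ureteric obstruction (UUO, the closing of 1 ureter, which dams urine in that kidney) for 2 days and 1 for 10 days. Each condition has wells of an endothelia gate and of a mesenchyme gate. The layouts number the cells from 1 to 4 (number 1 on plates 1 and 2, number 2 on plate 3, number 3 on plate 4, number 4 on plates 5 and 6), and a number was read as 1 mouse per condition, which gives n = 4 for every group. Genotype, strain, sex and age are not given in the sources used here. Counts from an eGFP transgene are in the tables, and the cells it marks are not described in the labels.

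Kap, the kidney androgen-regulated protein, is among the most abundant transcripts of the mouse proximal tubule, the segment that takes back most of the filtered fluid. Tmem27 (collectrin) is a partner of amino acid transporters in the brush border there, and Cubn (cubilin) is a receptor that takes up filtered proteins together with megalin. Umod (uromodulin) is the main protein of normal urine and is made in the thick ascending limb. Havcr1 (kidney injury molecule 1), Lcn2 (lipocalin 2, also called NGAL) and Krt20 (a keratin) are low in healthy tubules and are known as injury transcripts, Havcr1 of the proximal tubule and Lcn2 mainly of more distal segments. Lcn2 is also made by neutrophils. None of the 7 is a known marker of endothelial or mesenchymal cells.

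Tubule transcripts were read in both gates, with group means that differed between the times of obstruction. Kap averaged 540.1, 53.4 and 2.52 CPM (reads of a gene in a sum of wells, scaled to 1e+06 reads on genes) in the endothelia gate of healthy, day 2 and day 10 kidneys, and 149.8, 26.9 and 1.67 CPM in the mesenchyme gate. Lcn2 averaged 0.0353, 6.66 and 403 CPM in the mesenchyme gate at the same times. Umod averaged 718, 60.3 and 5.57 CPM in the endothelia gate, and 275, 86.7 and 703 CPM in the mesenchyme gate. At day 10 against healthy, Kap and Lcn2 in the mesenchyme gate and Umod in the endothelia gate passed (edgeR adjusted p under 0.05). No change of Kap in the endothelia gate or of Umod in the mesenchyme gate passed in edgeR. Nearly all Lcn2 and Umod reads of the mesenchyme gate at day 10 lay in 31 wells that carried epithelial markers.

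The sequences just upstream of the RefSeq starts of the 3 tubule genes that were lower at day 10 in a gate are shown so that the genes can be set side by side. They are the 250 bases before the RefSeq transcription start, from GRCm38.p6 (mm10), written 5′ to 3′ on the strand of the gene. Capitals mark a TATA box (TATAAA) or the half-site bound by the epithelial factor HNF1 (GTTAAT, or ATTAAC where it reads on the other strand). Kap lies at chr6:133849851-133853762 on the minus strand, Umod at chr7:119462711-119479282 on the minus strand and Tmem27 at chrX:164088830-164118860 on the plus strand. The windows are chr6:133853668-133853917, chr7:119479263-119479512 and chrX:164089937-164090186. The gene positions are GENCODE spans, whose 5′ ends differ from these RefSeq starts. The Kap and Umod windows thus overlap the 5′ end of the span, and the Tmem27 window lies inside it. RefSeq has another start for Tmem27, with the window chrX:164091939-164092188, which holds neither motif and is not shown.
Kap: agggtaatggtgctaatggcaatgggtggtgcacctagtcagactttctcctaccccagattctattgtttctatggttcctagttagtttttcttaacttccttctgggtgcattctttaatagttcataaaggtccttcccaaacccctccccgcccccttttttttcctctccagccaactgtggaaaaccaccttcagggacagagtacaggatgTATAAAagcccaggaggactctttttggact
Umod: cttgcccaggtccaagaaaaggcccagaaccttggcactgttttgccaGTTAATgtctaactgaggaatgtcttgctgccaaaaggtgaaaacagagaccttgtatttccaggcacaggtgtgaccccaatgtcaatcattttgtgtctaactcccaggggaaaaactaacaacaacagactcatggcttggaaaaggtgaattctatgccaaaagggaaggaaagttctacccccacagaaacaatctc
Tmem27: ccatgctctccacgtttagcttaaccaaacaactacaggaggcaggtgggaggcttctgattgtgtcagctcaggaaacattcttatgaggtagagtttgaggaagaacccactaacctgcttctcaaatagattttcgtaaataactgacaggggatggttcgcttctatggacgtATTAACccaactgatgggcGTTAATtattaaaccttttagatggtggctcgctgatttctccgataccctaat
The TATA box of Kap starts 31 bases before the transcription start. The GTTAAT of Umod starts 202 bases before it, and Tmem27 has GTTAAT at 54 bases and ATTAAC at 73 bases. Of 32851 such windows in the RefSeq table, 6.43% hold GTTAAT and 12.4% hold TATAAA on either strand, and the 2 motifs do not overlap each other in the windows shown. Among the other members, the Krt20 window holds TATAAA at 29 bases and a Havcr1 window holds GTTAAT at 86 bases. The windows of Lcn2 and Cubn hold neither motif. These matches are descriptions of the letters and were not tested as sites. The other members are Havcr1 (chr11:46735080-46779578, plus strand), Krt20 (chr11:99428403-99438150, minus strand), Lcn2 (chr2:32384633-32388252, minus strand) and Cubn (chr2:13276338-13491813, minus strand), with positions from the GENCODE annotation of the same build.

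As sums of wells, the gates carried the markers of their names, although some single wells did not, as described with the wells of epithelial markers and of high Kap. Pecam1, an adhesion molecule of endothelium, lay between 1882 and 2768 CPM in the 12 sums of the endothelia gate and between 0.529 and 13.1 CPM in those of the mesenchyme gate. Pdgfrb, which encodes a growth factor receptor of pericytes and fibroblasts, lay between 0.273 and 60.98 CPM in the endothelia gate and between 657 and 1184 CPM in the mesenchyme gate. The mesenchyme markers themselves moved, since of 7 tested in the mesenchyme gate at day 10 against healthy the collagen gene Col1a1 rose (2.97 ± 0.48 log2, edgeR adjusted p = 0.0144) and Acta2, Myh11, Tagln and Rgs5, genes of smooth muscle and pericytes, fell by 0.59 to 0.95 on the log2 scale. Over all genes tested in that comparison, 0.665% passed as higher and 0.658% as lower. Of 2292 sorted wells, 2235 passed the filter of 1000 genes and 20000 reads. Plates held 116992491 to 142898570 reads on genes, and the sums, 1 for each gate, condition and number, held 19382742 to 56326210. The wells of a gate and condition stand in the same place on every plate, so condition and place on the plate cannot be told apart. The labels do not say which mouse a number stands for, and p-values measure the spread between these sums. In a sum of wells, fewer tubule cells and less tubule RNA per well cannot be told apart.

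The 12 control wells, all on the first row of a plate, are the only wells without a sorted cell label, and the layout does not say what they received. They held 71020 reads on genes in all, a median of 3264 per well (251 to 30393). Kap had 1 read in them, which is 14.1 CPM with an exact binomial (Clopper-Pearson) 95% interval from 0.356 to 78.4 CPM. With the CPM of each plate's healthy wells applied to the reads of its own control wells, 21.4 Kap reads would be counted at the endothelia level and 7.95 at the mesenchyme level. These are levels of summed wells, in which a few wells hold many of the Kap reads. Umod also had 1 read, and the other 5 members had none, which allows up to 42.2 CPM at a floor of 3 reads. Per 1000 reads of the spike-in RNA (ERCC), Kap stood at 116 in healthy endothelia wells and 44.9 in healthy mesenchyme wells, against 0.00824 in the control wells. Of 257 Pdgfrb reads in the control wells, 254 lay in 1 well of plate 2 and 3 other wells had 1 read each, and Pecam1 had 13 reads in all.

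**Figure D1:**
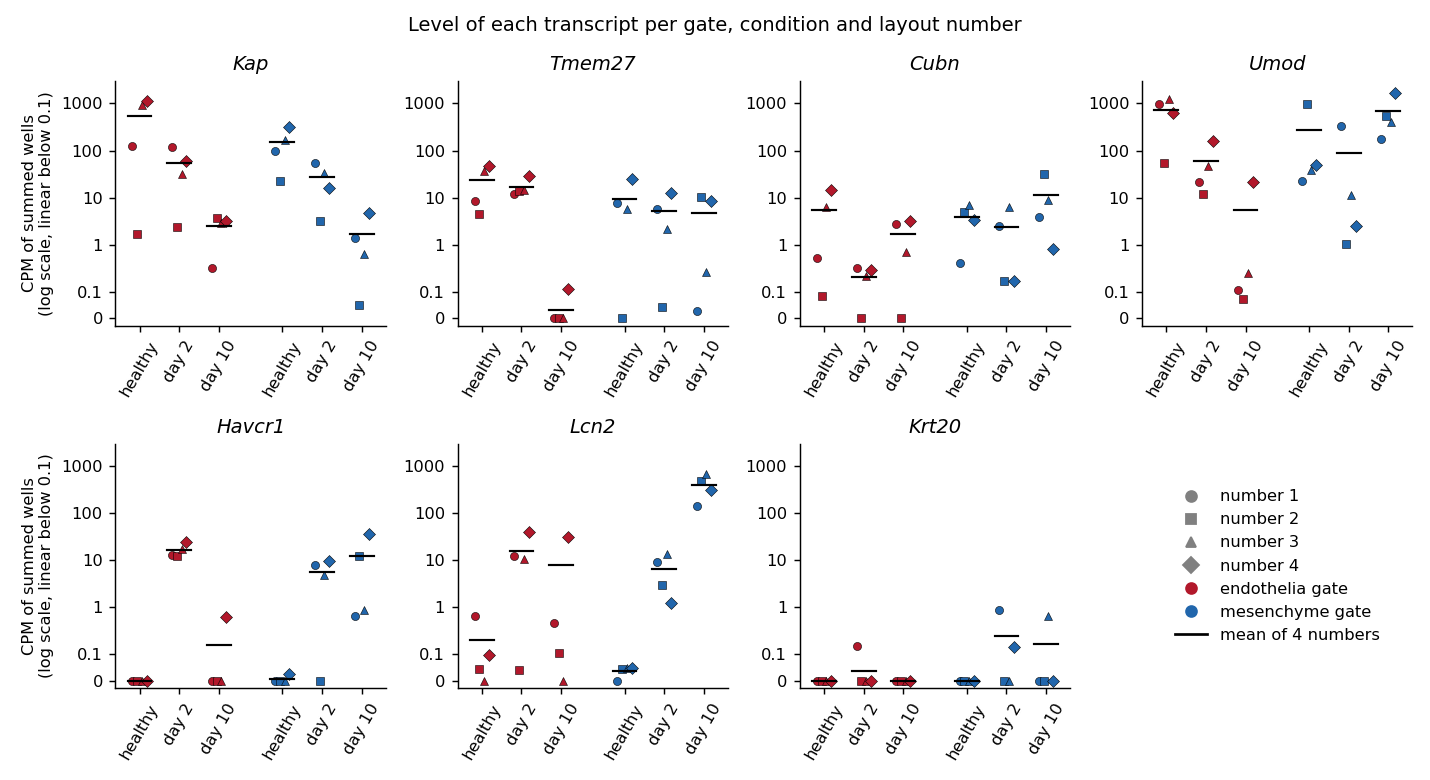
Level of each member in every sum of wells, in CPM on an axis that is logarithmic and linear near 0, by gate and condition. Each point is 1 number, told apart by its marker, and the bar is the mean of 4. Kap is at most 4.67 CPM in every day 10 sum of both gates, while Lcn2 lies between 144 and 686 CPM in every day 10 mesenchyme sum.

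Kap, the proximal tubule transcript, was present in most healthy wells of both gates. In the endothelia gate it stood at 125, 1.67, 914 and 1120.1 CPM in healthy numbers 1 to 4, at 121, 2.36, 31.4 and 59.1 CPM at day 2, and at 0.32, 3.71, 2.92 and 3.14 CPM at day 10. Healthy number 2 lay within the range of the day 10 sums, and every other healthy sum was far above it. In the mesenchyme gate Kap stood at 96.7, 22.6, 167 and 313 CPM in healthy kidneys, at 54.0, 3.24, 34.1 and 16.2 CPM at day 2 and at 1.36, 0.0481, 0.619 and 4.67 CPM at day 10. The day 10 and healthy sums of this gate did not overlap. The fitted change of Kap at day 10 against healthy was -6.84 ± 0.72 on the log2 scale in the mesenchyme gate (SE, edgeR adjusted p = 0.00236). It was lower in 4 of 4 numbers. The change at day 2 against healthy was -2.36 ± 0.58 (adjusted p = 0.161), and that at day 10 against day 2 was -4.48 ± 0.68 (adjusted p = 0.0794), so neither passed in edgeR, while DESeq2 called both (adjusted p = 0.000664 and 7.41e-13). In the endothelia gate no change of Kap passed in edgeR, with -3.00 ± 1.61 at day 2 against healthy (adjusted p = 0.697), -6.59 ± 2.11 at day 10 against healthy (adjusted p = 0.25) and -3.59 ± 1.90 at day 10 against day 2 (adjusted p = 0.844). Without number 2 the endothelia change at day 10 against healthy was -8.37 (adjusted p = 0.0284), and DESeq2 called that change with all numbers (adjusted p = 0.000259).

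The share of wells with at least 1 Kap read was lowest at day 10 in every number of both gates, and in numbers 1 and 2 it was higher at day 2 than in healthy kidneys. Among endothelia wells it was 80.2, 6.25, 98.4 and 99.2% in healthy numbers 1 to 4, 86.8, 11.1, 65.6 and 63.8% at day 2, and 3.15, 3.12, 9.38 and 11.1% at day 10. Among mesenchyme wells it was 79.2, 6.56, 96.7 and 99.2% in healthy kidneys, 85.6, 12.5, 71.9 and 62.2% at day 2 and 2.38, 1.56, 8.20 and 12% at day 10. Both gates of number 2 were thus low in healthy and day 2 kidneys alike, on 1 plate. With every well thinned to 100000 reads, the mean share over numbers was 64.5, 42.1 and 3.79% in the endothelia gate and 63.6, 40.8 and 3.26% in the mesenchyme gate at healthy, day 2 and day 10. Thinning left out 16, 11 and 6 shallower wells of the endothelia gate and 14, 6 and 14 of the mesenchyme gate. The control wells, where 1 of 12 had a Kap read, hold too few reads for the same thinning. With healthy wells thinned to the control median of 3264 reads, 27.7% of endothelia and 23.7% of mesenchyme wells would have a Kap read. The difference from the control wells was not tested.

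**Figure D2:**
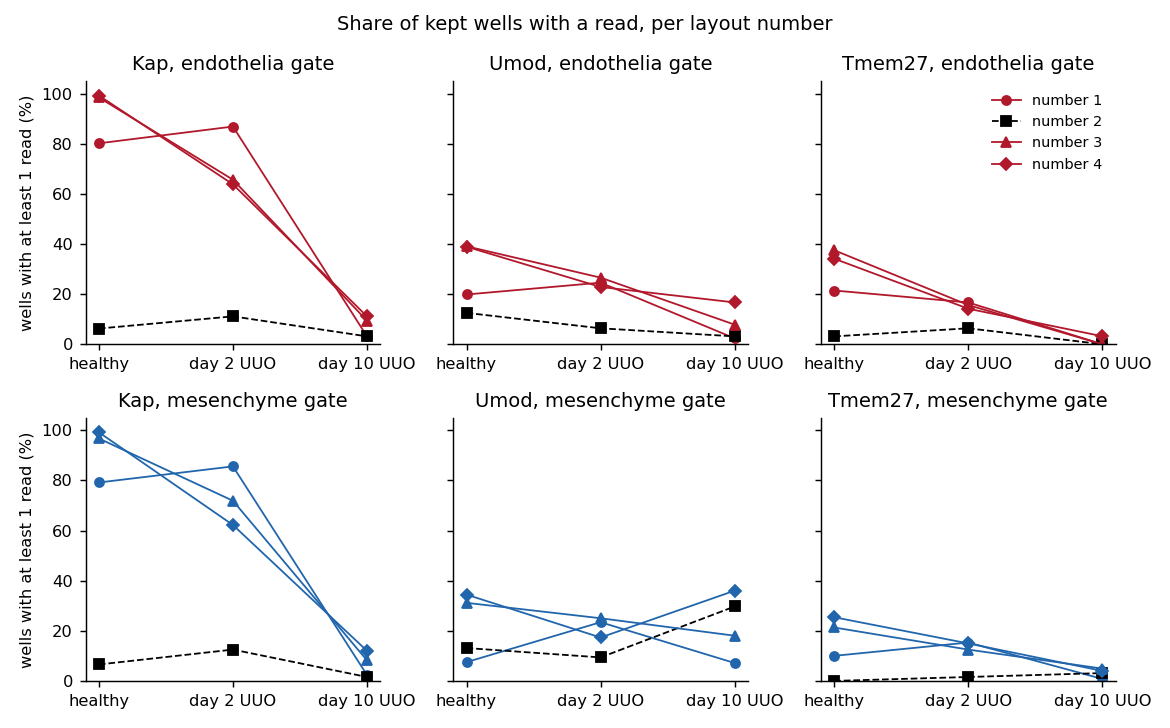
Share of kept wells with at least 1 read of Kap, Umod and Tmem27, in percent and without thinning, by gate and condition. Each line is 1 number, with number 2 dashed in black. The Kap share of number 2 starts at 6.25% in the healthy endothelia gate, against 80.2 to 99.2% in the other numbers.

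Other proximal tubule transcripts were mostly low in healthy number 2 as well. Of 25 genes of a proximal tubule list, 23 had their lowest healthy level in number 2 in the endothelia gate and 21 in the mesenchyme gate, leaving out ties. At day 2 this held for 15 and 12 of them. Slc34a1, a phosphate transporter of the proximal tubule, stood at 32.7, 0.0428, 142 and 111 CPM in the healthy endothelia sums of numbers 1 to 4 and at 38.1, 0.0461, 74.0 and 88.3 CPM in the healthy mesenchyme sums. Not every gene was low, since Cubn had 4.93 CPM in the healthy mesenchyme sum of number 2 and Tmem27 had 13.6 CPM in its day 2 endothelia sum, both above the sum of number 1. Nor was Umod in the mesenchyme gate, where healthy number 2 was the highest sum. In that sum, however, 1 well held all 107 reads of Cubn, and 1 well held 21407 of 21426 reads of Umod. Without the well of highest member CPM in each sum, Umod of number 2 stood at 0.896 CPM. It then stood at 3.73, 39.25 and 48.4 CPM in numbers 1, 3 and 4. Kap is raised by androgen in mice, so the sex-linked transcripts were read for comparison. Ddx3y, on the Y chromosome, had 36.2 to 169 CPM in every sum, and Xist, which is read from the inactive X of females, had at most 0.359 CPM. The number 2 sums had 92.1 to 169 CPM of Ddx3y. Number 2 is 1 plate, so its plate and its mice cannot be told apart.

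Tmem27, the collectrin gene, was lower in the day 10 endothelia gate than at both earlier times. It stood at 8.34, 4.41, 36.0 and 46.2 CPM in healthy sums, 11.8, 13.6, 14.4 and 28.1 CPM at day 2, and 0, 0, 0 and 0.117 CPM at day 10, where only 6 reads were counted in 381 wells. The day 10 sums lay below every other endothelia sum. The change at day 10 was -9.61 ± 1.16 log2 against healthy (edgeR adjusted p = 0.00808) and -9.67 ± 1.16 log2 against day 2 (adjusted p = 0.036), and it was lower in 4 of 4 numbers in both. These comparisons share the day 10 sums. The call against day 2 was lost without number 1, 3 or 4 (adjusted p from 0.197 to 0.48), and the call against healthy was lost without number 1 (0.0593) or 4 (0.17). Tmem27 in the mesenchyme gate stood at 7.54, 0, 5.63 and 25.1 CPM in healthy sums, 5.83, 0.0415, 2.14 and 12.5 CPM at day 2 and 0.0256, 10.3, 0.258 and 8.68 CPM at day 10. These groups overlap, and no change passed.

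Cubn, the cubilin gene, had few reads, 2804 in 102 wells. Its endothelia sums stood at 0.514, 0.0856, 6.19 and 14.7 CPM in healthy kidneys, 0.325, 0, 0.211 and 0.293 CPM at day 2, and 2.77, 0, 0.694 and 3.19 CPM at day 10. Its mesenchyme sums stood at 0.401, 4.93, 7.02 and 3.36 CPM, 2.51, 0.166, 6.46 and 0.167 CPM, and 3.92, 31.2, 9.03 and 0.822 CPM at the same times. The groups overlap in every comparison, and no change of Cubn passed in edgeR. Of 6 tested genes known to act with cubilin in protein uptake, such as Lrp2 (megalin) and Amn (amnionless, which carries cubilin to the membrane), none passed within a gate.

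Umod, the thick ascending limb transcript, fell in the endothelia gate by day 10. Its mean mesenchyme level was highest then, as it was in numbers 3 and 4 but not in 1 and 2, without passing the test. Its endothelia sums stood at 952, 55.7, 1228 and 638 CPM in healthy sums, 21.5, 12.01, 47.9 and 159.8 CPM at day 2, and 0.107, 0.0714, 0.256 and 21.8 CPM at day 10. The day 10 and healthy sums did not overlap. Its mesenchyme sums stood at 22.5, 987, 39.0 and 50.02 CPM in healthy sums, 332, 1.04, 11.4 and 2.55 CPM at day 2, and 179.7, 532, 410.3 and 1689 CPM at day 10. There 3 of 4 healthy sums lay below every day 10 sum and number 2 lay among them. The endothelia change at day 10 against healthy was -9.25 ± 1.42 log2 (edgeR adjusted p = 0.0236), lower in 4 of 4 numbers, and the change at day 2 was -4.13 ± 1.09 log2 (adjusted p = 0.229). The mesenchyme change at day 10 against healthy was 2.60 ± 2.13 log2 (adjusted p = 0.672). The endothelia call was lost without the replicate block (adjusted p = 0.112), without number 1, 2 or 3 (0.113, 0.0501 and 0.129), and without the wells with epithelial markers (0.12).

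Single wells carried much of the Umod signal. Of the mesenchyme gate, 1 well held 84.7% of the Umod reads of healthy kidneys and another held 87.9% of those at day 2. At day 10 the highest well held 41.5%. The share of mesenchyme wells with a Umod read, after thinning, was 15.99, 12.5 and 12.1% at healthy, day 2 and day 10, and that of endothelia wells was 17.6, 14.4 and 2.64%.

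Havcr1, the injury receptor of the proximal tubule, was nearly absent from healthy wells. Endothelia sums had 0 reads in all 4 healthy kidneys, 13.1, 12.4, 17.1 and 24.4 CPM at day 2, and 0, 0, 0 and 0.623 CPM at day 10. All 4 day 2 sums lay above all healthy and day 10 sums. With a floor of 3 reads over the healthy group, the pooled day 2 level was at least 747-fold higher, and the adjusted p in edgeR was 0.114, while DESeq2 called the change. Mesenchyme sums had 0, 0, 0 and 0.0235 CPM in healthy sums, which is 1 read, then 7.82, 0, 4.94 and 9.81 CPM at day 2 and 0.64, 12.2, 0.877 and 36.0 CPM at day 10. The pooled ratio to that 1 read was 825 at day 2 (counting interval 148 to 32612) and 1767 at day 10 (317 to 69850). Neither change passed in edgeR, and DESeq2 called both. In all, 60 wells held the 4887 Havcr1 reads, and 4 of them held at least 50% of the reads.

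Lcn2, the lipocalin gene, rose at each later time in the sums of all mesenchyme wells. At day 10 it lay in few wells with epithelial markers. It stood at 0, 0.0461, 0.0481 and 0.0469 CPM in healthy sums, which is 4 reads in all, 9.04, 2.99, 13.4 and 1.21 CPM at day 2, and 144, 476, 686 and 306 CPM at day 10. The groups did not overlap. The changes were 7.21 ± 0.91 log2 at day 2 against healthy (edgeR adjusted p = 0.00618), 13.3 ± 0.93 at day 10 against healthy (adjusted p = 0.000247) and 6.13 ± 0.64 at day 10 against day 2 (adjusted p = 0.0078), each higher in 4 of 4 numbers. The call at day 2 was lost without number 3 (adjusted p = 0.0846), and that at day 10 against day 2 without number 2 (0.0579) or 3 (0.114). Without the wells with epithelial markers all 3 calls were lost, and day 10 against day 2 turned to -3.18 log2 (adjusted p = 0.641). At day 2 such wells held 9.11% of the Lcn2 reads of this gate, and without them its sums stood at 1.27 to 14.1 CPM. Lcn2 in the endothelia gate stood at 0.654, 0.0428, 0 and 0.0995 CPM in healthy sums, 12.3, 0.04, 10.8 and 40.1 CPM at day 2, and 0.462, 0.107, 0 and 31.6 CPM at day 10. The groups overlap there, and no change passed in edgeR.

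Krt20, the injury keratin, had 58 reads in 5 wells. It was read only in number 1 at day 2 in the endothelia gate (0.15 CPM), and in the mesenchyme gate in numbers 1 and 4 at day 2 (0.863 and 0.146 CPM) and number 3 at day 10 (0.671 CPM). It did not pass the expression filter and was not tested. Compared per length of merged exons, Kap had the highest mean level of the 7 in the healthy endothelia gate, 764 CPM per kb, and Umod had 260.0 and Tmem27 15.4 CPM per kb. In the day 10 mesenchyme gate the order was Umod with 254 ± 244, Lcn2 with 154 ± 88.7, Havcr1 with 5.38 ± 7.18, Tmem27 with 3.12 ± 3.52 and Kap with 2.37 ± 2.93 CPM per kb (SD, n = 4). Umod and Lcn2 did not differ beyond their spread there, nor did Havcr1, Tmem27 and Kap.

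The calls among the 6 tested members are given beside those over all genes, since the members were chosen with earlier results known. Of the endothelia comparisons, day 2 against healthy had none, where 0.15% of 14026 genes passed, although 4 members had an unadjusted p under 0.05 in edgeR and 4 passed in DESeq2 (Havcr1, Lcn2, Umod and Cubn). Day 10 against healthy had 2, Umod and Tmem27, both lower, where 0.649% of genes passed and 0.328% were lower. Day 10 against day 2 had 1, Tmem27, where the 0.0143% of genes that passed were all lower. Of the mesenchyme comparisons, day 2 against healthy had 1, Lcn2, where 0.459% of 14582 genes passed and 0.329% were higher. Day 10 against healthy had 2, Lcn2 and Kap, where 1.32% of genes passed, 0.665% higher and 0.658% lower. Day 10 against day 2 had 1, Lcn2, where 0.048% of genes passed and 0.0411% were higher. The comparisons with healthy kidneys share the healthy sums. DESeq2 called 4, 3 and 3 members in the endothelia gate and 3, 3 and 2 in the mesenchyme gate, in the same order. Scaling to ERCC reads moved the split of all calls. At day 10 against healthy it gave 192 genes higher and 19 lower in the mesenchyme gate, beside 97 and 96, and 20 and 9 in the endothelia gate, beside 45 and 46. At day 2 against healthy it gave 69 and 3 in the mesenchyme gate, beside 48 and 19, and at day 10 against day 2 it gave 3 and 1 there, beside 6 and 1. The median change of all genes at day 10 against healthy was then 0.34 log2 in the mesenchyme gate and 0.16 log2 in the endothelia gate, and no member call within a gate changed. The median fitted change of the 6 members at day 10 against healthy was -4.28 log2 in the endothelia gate and 1.71 log2 in the mesenchyme gate, beside -0.0165 and 0.0385 log2 over all genes tested.

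Endothelia and mesenchyme wells of the same plates were then compared at each time. No member passed in healthy kidneys, where 23.9% of 16116 genes passed, or at day 2, where 22.1% passed, and none had an unadjusted p under 0.05 in edgeR or passed in DESeq2. At day 10 there were 4 of 6 members lower in the endothelia gate, where 22.8% of genes passed and 11.5% were lower. Lcn2 differed by -7.67 ± 1.89 log2 (edgeR adjusted p = 0.00556), Umod by -7.81 ± 2.25 (adjusted p = 0.016), Tmem27 by -7.74 ± 2.06 (adjusted p = 0.00977) and Havcr1 by -6.92 ± 1.82 (adjusted p = 0.0112). Each was lower in the endothelia sum in 4 of 4 numbers. With ERCC scaling the split of all calls at day 10 was 893 higher and 3202 lower, beside 1810 and 1858, with the 4 members still called. The calls of Havcr1, Tmem27 and Umod were lost without 1 number (Havcr1 without number 3 or 4, adjusted p = 0.0502 and 0.0752, Tmem27 without number 4, 0.0635, Umod without number 3, 0.0763). Without the wells with epithelial markers all 4 calls were lost, and Lcn2 turned to 1.18 log2. Whether the change over time itself differed between the gates was tested as an interaction. Again no member passed in any of the 3 interactions, where 0.0683% of genes passed for day 2 against healthy, 0.254% for day 10 against healthy and 0.0% for day 10 against day 2. At an unadjusted p under 0.05 in edgeR there were 0, 3 and 4 members, and DESeq2 called 0, 3 and 3 of them. The smallest adjusted p of the 18 member tests was 0.145.

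The member reads lay in few wells. At least 50% of all reads lay in 6 of 2235 wells for Kap and Cubn, 5 for Umod and Lcn2, 4 for Havcr1, 1 for Krt20 and 19 for Tmem27. The other reads of Kap were spread thinly, with at least 1 read in 1079 wells, against 448 for Umod, 263 for Tmem27 and 157 for Lcn2. The 4 highest Kap wells were healthy endothelia wells in which Kap took 10.6 to 13.0% of all reads and Pecam1 had 0 to 12.2 CPM. Another healthy endothelia well gave 20.55% of its reads to Umod. The share of wells with none of the 7 was 17.4, 25 and 81.9% in the endothelia gate at healthy, day 2 and day 10, and 20.3, 25.4 and 60.4% in the mesenchyme gate. The share with at least 2 members was 41.8, 32.9 and 2.36% in the endothelia gate and 31.3, 29.8 and 12.2% in the mesenchyme gate.

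**Figure D3:**
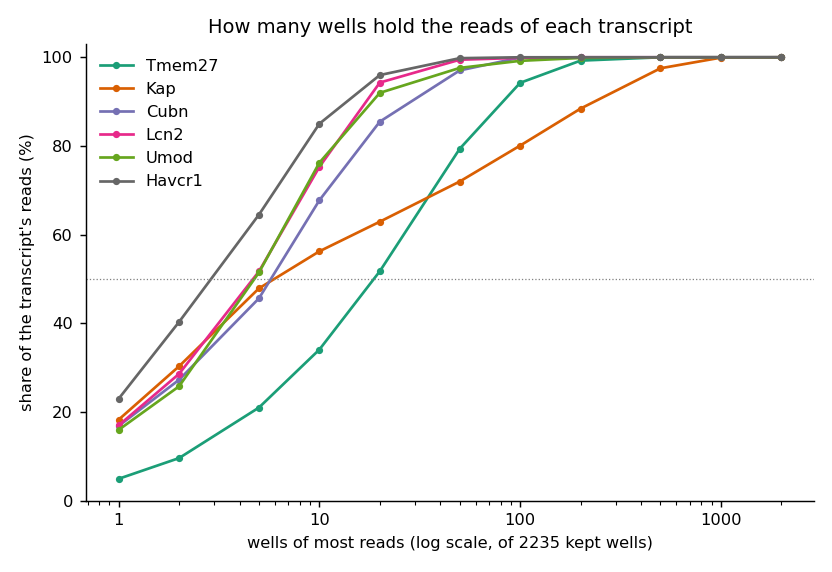
Cumulative share of the reads of each member but Krt20, in percent, against the number of wells ranked by reads, on a log axis. The curves of Havcr1, Lcn2 and Umod reach 85.0, 75.3 and 76.2% at 10 wells, and that of Tmem27 reaches 34.1%.

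Wells with epithelial markers were counted as those with at least 50 CPM of Epcam, Cdh1 and Cdh16 together, which are adhesion molecules of tubule epithelium. There were 22, 11 and 5 such wells in the endothelia gate at healthy, day 2 and day 10, and 32, 20 and 31 in the mesenchyme gate, 121 in all. The 31 wells of the day 10 mesenchyme gate were 8.24% of its wells and held 99.8% of its Lcn2 reads, 99.8% of its Umod reads, 99.8% of its Havcr1 reads, 99.1% of its Tmem27 reads and 65.7% of its Kap reads. In the healthy endothelia gate the 22 wells held 94.9% of the Umod reads and 45.5% of the Kap reads. Kap in the healthy mesenchyme gate lay mostly outside such wells, which held 17.6% of its reads. At day 2 such wells of the mesenchyme gate held 88.5% of the Umod reads. They held 9.11% of the Lcn2, 3.46% of the Tmem27 and 0% of the Havcr1 reads. In the endothelia gate at day 2 such wells held 67.4% of the Umod, 32.4% of the Lcn2 and 49.8% of the Havcr1 reads.

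Leaving out the 121 wells separated the members. The rule uses no gene of the proximal tubule list, and the highest Kap well, a healthy endothelia well, had 0 CPM of Epcam. The healthy endothelia sum of number 4 still stood at 742 CPM of Kap, so wells high in Kap were left in. Whether the wells left in held tubule cells was not tested. Kap in the mesenchyme gate then stood at 0.0531 to 1.38 CPM at day 10 against 23.9 to 267 CPM in healthy sums, and its call at day 10 against healthy remained. Its changes at day 2 against healthy (-2.70 log2, edgeR adjusted p = 0.0328) and at day 10 against day 2 (-5.25 log2, adjusted p = 0.00517) passed without them. Lcn2 in the mesenchyme gate stood at 0.106 to 1.51 CPM at day 10 against 1.27 to 14.1 CPM at day 2, so the direction between these times turned round, and its changes at day 10 against healthy (4.41 log2, adjusted p = 0.17) and day 2 against healthy (7.59 log2, adjusted p = 0.0862) no longer passed. Umod in the mesenchyme gate stood at 0.318 to 4.73 CPM at day 10 against 0.926 to 50.2 CPM in healthy sums. Umod in the endothelia gate stood at 0.0714 to 7.29 CPM at day 10 against 1.87 to 64.8 CPM in healthy sums (-5.76 log2, adjusted p = 0.12). Tmem27 in the endothelia gate kept both of its calls at day 10. Between the gates at day 10, Havcr1 (-1.92 log2, adjusted p = 0.327), Umod (-1.17, 0.69) and Tmem27 (-1.53, 0.523) no longer passed, nor did Lcn2 (adjusted p = 0.767).

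**Figure D4:**
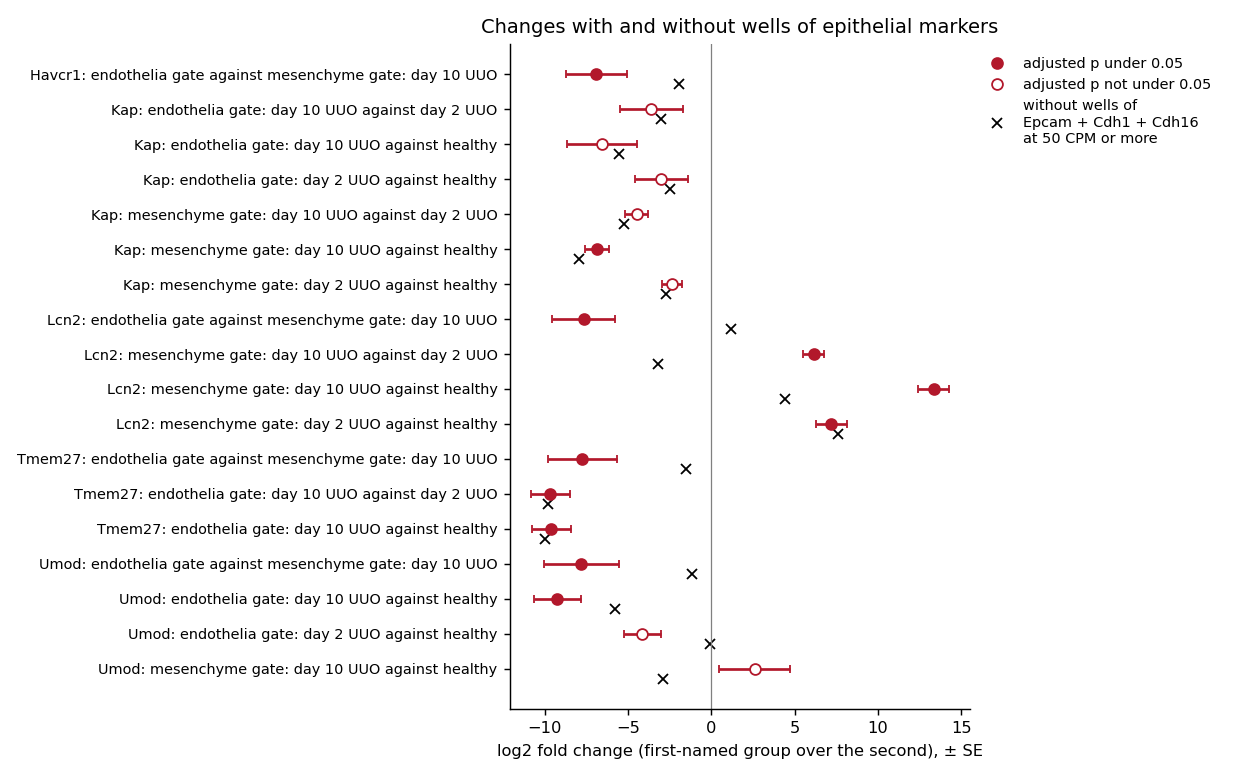
The 18 member changes given in the text, in log2 with the SE as bars and the first-named group over the second. Filled points passed an adjusted p under 0.05 in edgeR, and crosses are the values without the epithelial wells. For Lcn2 in the mesenchyme gate at day 10 against day 2 the point is at 6.13 and the cross at -3.18.

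The wells high in Lcn2 were described next, at a threshold of 1000 CPM set after the values were seen. Of the mesenchyme wells 18 reached it, all at day 10, with 3, 4, 4 and 7 in numbers 1 to 4, and 15 of them also had at least 1000 CPM of Umod, which is 83.3% of the Lcn2 wells and 88.2% of the 17 Umod wells. In these 18 wells the median level was 876 CPM for Epcam, 928 CPM for the kidney cadherin Cdh16, 454 CPM for the epithelial keratin Krt8 and 79551 CPM for Spp1 (osteopontin). Pdgfrb and eGFP had medians of 0 in them, against 760.0 and 359 CPM in the other 1088 mesenchyme wells, and the smooth muscle actin Acta2 had 22.7 against 19270.0 CPM. S100a8, a defining transcript of neutrophils, and Ptprc, the pan-leukocyte CD45 gene, had reads in 0 of the 18 wells. Both were rare in the other 1088 mesenchyme wells too, with reads in 2.85 and 1.38% of them. The 0 of 18 therefore does not set these wells apart. The endothelia gate had 3 wells with 1000 CPM of Lcn2 at day 2 and 2 at day 10. In these 5 wells Epcam, Cdh16, Krt8 and Umod had medians of 0, each with reads in 2 wells. Pecam1 had a median of 278 CPM in them, against 2081 CPM in the other 1124 endothelia wells.

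**Figure D5:**
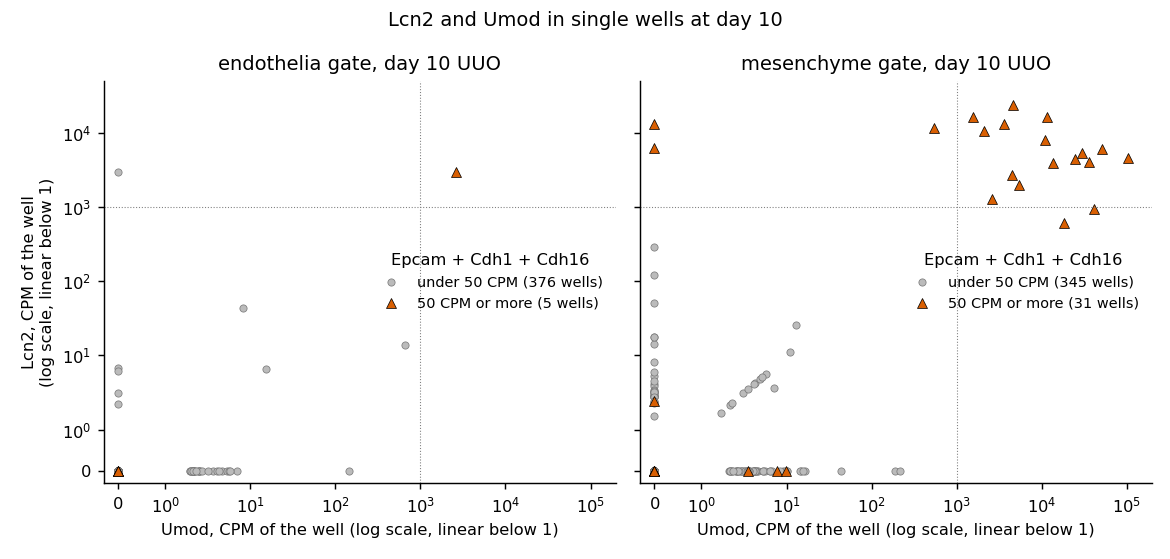
Lcn2 (vertical) against Umod (horizontal) in single wells at day 10, in CPM on axes that are logarithmic and linear near 0, with the endothelia gate left of the mesenchyme gate. Triangles are wells with epithelial markers, 5 in the endothelia gate and 31 in the mesenchyme gate, and dotted lines mark 1000 CPM. In the mesenchyme gate 15 wells lie above both lines.

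Companions of wells high in Umod or Kap were read in the same way. At 1000 CPM, Umod was reached by 13, 5 and 1 endothelia wells and 4, 2 and 17 mesenchyme wells at healthy, day 2 and day 10. The 19 endothelia wells had a median of 354 CPM of Slc12a1, the salt transporter of the thick ascending limb, and 261 CPM of Pecam1, against 0 and 2095 CPM in the other 1110 endothelia wells. In the 23 mesenchyme wells Slc12a1 had a median of 0 CPM, with reads in 11 of them, against 3.32% of the other 1083. Lcn2 had a median of 3946.5 CPM and Spp1 of 44701 CPM in these 23 wells. Kap was reached by 20, 6 and 0 endothelia wells and 13, 1 and 0 mesenchyme wells. In the 26 Kap wells of the endothelia gate Slc34a1 had a median of 625 CPM and Pecam1 of 1192 CPM, against 0 and 2091 CPM in the other 1103, so endothelial and tubule transcripts were read together there. In the 14 Kap wells of the mesenchyme gate Pdgfrb had a median of 371 CPM, against 754 CPM in the other 1092. Doublets were not called, and the part of wells with more than 1 cell was not tested.

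Other genes of the same tubule segments were read from lists chosen with earlier results known. In the endothelia gate at day 10 against healthy, 0.328% of all genes tested passed as lower. Of 25 proximal tubule genes tested there, 4 fell and none rose, and 21 did not pass. They were Fbp1, an enzyme of glucose synthesis (-8.14 ± 1.21 log2, edgeR adjusted p = 0.0217), Slc34a1 (-8.84 ± 1.32, adjusted p = 0.0217), the fatty acid transporter Slc27a2 (adjusted p = 0.0236) and Acsm2 (adjusted p = 0.0498). The list's median change was -5.97 log2 (-5.43 from pooled levels), beside -0.0165 over all genes. Of 24 tested in the mesenchyme gate, 2 fell at day 10 against healthy, Slc34a1 (-6.34 ± 0.91 log2, adjusted p = 0.00945) and the cytochrome Cyp2e1 (adjusted p = 0.0457), with a median of -3.95 log2 (-2.57 from pooled levels). Over all genes tested there, 0.658% passed as lower. No proximal tubule gene passed in the other 4 comparisons within a gate. Cyp4b1, Dab2 and Gatm of this list are also high in the endothelia gate.

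Of 17 tubular injury genes tested in the mesenchyme gate, 2 rose at day 10 against healthy, Clu, a secreted chaperone (2.43 ± 0.37 log2, edgeR adjusted p = 0.0124), and the transcription factor gene Sox4 (adjusted p = 0.0498), and 1 fell, the small heat shock protein gene Cryab (adjusted p = 0.0151). Over all genes tested there, 0.665% passed as higher and 0.658% as lower. The list's median was 1.90 log2. Clu, Cryab and Spp1 of this list were also read in mesenchyme wells, and whether the sorted cells made them was not tested. Spp1 had reads in 74.7% of the 1088 mesenchyme wells under 1000 CPM of Lcn2, with a median of 8.97 CPM. No injury gene passed in the other 5 comparisons within a gate. Of 8 thick ascending limb genes tested, none passed in any, and at day 10 against healthy the median was -5.86 log2 in the endothelia gate and 0.549 log2 in the mesenchyme gate (-4.13 and -0.151 from pooled levels, which differ in sign in the mesenchyme gate). The lists for collecting duct, distal convoluted tubule, general tubule epithelium, podocytes, leukocytes, neutrophils and erythroid cells had no gene that passed within a gate.

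The genes whose levels ran most like each member over the 24 sums were ranked by Pearson correlation of log2 CPM, as a description of sums that share plates. For Kap they were Pck1 (0.90), Slc34a1 (0.8615) and Akr1c21 (0.854). For Umod they were Slc12a1 (0.877), Fxyd2 (0.834) and Sostdc1 (0.805), and for Tmem27 Guca2b (0.794), Fbp1 (0.784) and Glyat (0.776). Lcn2 ran with Col5a3 (0.783), Timp1 (0.762) and Serpina3n (0.7385), and Havcr1 with Serpina3n (0.766), Stat3 (0.756) and Emilin1 (0.725). Cubn had its nearest genes at 0.72 (Srgap3), 0.703 (Anapc13) and 0.69 (Pef1). Among the members, Havcr1 and Lcn2 gave 0.672 and Kap and Tmem27 0.585.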

How the data were processed

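Per the labels, kidneys were digested, cells sorted and single wells sequenced with Smart-seq2, and the authors deposited raw read counts per gene and well, counts of 92 ERCC spike-ins and a layout for each of 6 plates. STAR and mm10 are named, with no version, in the submitters' processing notes. The counting tool, annotation and strandedness are not given in the sources used here. The 24490 entries of the tables, of which 771 share 279 symbols, were added by symbol. Wells with at least 1000 genes and 20000 reads were kept, and counts were summed per gate, condition and number, with at least 10 wells per sum. After filterByExpr and TMM scaling, edgeR 4.0.16 under R 4.3.3 tested 6 comparisons within and 6 between gates by quasi-likelihood F tests with number as a block and Benjamini-Hochberg adjustment over all genes, threshold 0.05. Same-numbered sums shared deviations only weakly (r from 0.0061 to 0.168 in the endothelia gate and from 0.0376 to 0.137 in the mesenchyme gate), so the block rests on shared plates. A change's SE is its size over the square root of F. Levels are unscaled CPM. Intervals and floors cover counting error alone, as there are no molecular identifiers. DESeq2 1.42.0, other filters and left-out numbers were alternatives. The members and lists were chosen with earlier results of these data known. Genes were named by rule: the members, the 3 most correlated genes of each and the genes of smallest p of each list, while wells above 1000 CPM and their markers were chosen after their values were seen.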

Additional observations from a re-analysis of the deposited data

Results flagged for a closer look

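In 13 of 38 groups of 4 sums, 1 sum lay far from the other 3 (its gap to the nearest was over Dixon's 95% critical share of the group's range). Chance gives this in about 1 in 20 groups of normally distributed values, which these skewed sums were not shown to be. A group with 3 sums at 0 and 1 above passes by construction. The 13 are therefore a list and cannot be set against that rate. At day 10 in the endothelia gate the far sum was number 4 for 4 members, with 0.623 CPM of Havcr1, 31.6 CPM of Lcn2, 21.8 CPM of Umod and 0.117 CPM of Tmem27. In that gate number 4 was also high at day 2 for Tmem27 (28.1 CPM), and number 1 was high for Krt20 at day 2 (0.15 CPM) and for Lcn2 in healthy kidneys (0.654 CPM). In the mesenchyme gate at day 10, number 3 was high for Krt20 (0.671 CPM). At day 2, number 1 was high for Umod (332 CPM) and Krt20 (0.863 CPM), and 1 well held 11194 Umod reads there. In healthy kidneys of the mesenchyme gate, number 2 was high for Umod (987 CPM), where 1 well held 21407 reads, number 4 was high for Havcr1 (0.0235 CPM, 1 read), and number 1 was low for Lcn2 (0 CPM).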

How the results depend on the processing

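Counts of genes that passed are given in the order endothelia day 2 against healthy, day 10 against healthy and day 10 against day 2, then mesenchyme in the same order, then the gate interactions in the same order. They were 21, 91, 2, 67, 193, 7, 11, 41 and 0. DESeq2's test gave 439, 760, 289, 571, 1144, 381, 353, 593 and 329, and sums per plate 122, 307, 49, 162, 509, 65, 38, 163 and 32. Without a filter on low counts they were 65, 167, 19, 99, 272, 31, 10, 25 and 0. The block was varied too: without the replicate block they were 12, 50, 0, 42, 125, 4, 7, 26 and 1, and 2 of 18 member changes lost their call (Umod in the endothelia gate at day 10 against healthy, adjusted p = 0.112, and Tmem27 at day 10 against day 2, 0.0583). ERCC scaling gave 16, 29, 2, 72, 211, 4, 6, 16 and 0. The stricter filter on wells gave 23, 69, 1, 68, 199, 7, 15, 30 and 1, leaving out the highest member well of each sum 22, 91, 1, 63, 187, 8, 7, 49 and 1, and leaving out epithelial wells 18, 73, 2, 63, 184, 8, 5, 23 and 0. All sorted wells gave 19, 91, 2, 68, 189, 8, 11, 31 and 0. Leaving out 1 number gave 0 to 11, 6 to 58, 0 to 6, 16 to 34, 28 to 205, 0 to 5, 0 to 5, 1 to 11 and 0 to 3, and 2702 to 3347, 2475 to 3022 and 2423 to 2923 between gates at healthy, day 2 and day 10, where the main counts were 3857, 3567 and 3668. At an unadjusted p under 0.05, 1301 genes differed in the last interaction.

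Without epithelial wells 3 member changes turned round, namely Lcn2 between the gates at day 10 (1.18 log2), Lcn2 in the mesenchyme gate at day 10 against day 2 (-3.18) and Umod there at day 10 against healthy (-2.90). Kap in the mesenchyme gate at day 10 against healthy passed in 14 of 14 alternatives (adjusted p up to 0.0362), Lcn2 there in 13, Lcn2 at day 2 against healthy in 12 and at day 10 against day 2 in 11. Tmem27 in the endothelia gate passed in 12 of 14 against healthy and in 8 against day 2, and Umod in 8. At other thresholds chosen after seeing the data, 500 and 2000 CPM, 20 and 17 day 10 mesenchyme wells were high in Lcn2, and 44 and 12 healthy endothelia wells and 31 and 5 healthy mesenchyme wells in Kap. Depth limits Krt20, Cubn and Havcr1, whose sums held few or no reads.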
